A study of Homo sapiens with 2 samples.

Results

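The TGF-beta, BMP and activin pathway was described in HCT116, an epithelial line from a human colon cancer, as 53 genes chosen by their symbols: ligands, latent TGF-beta binding proteins, receptors, SMADs, secreted antagonists, intracellular inhibitors and ID genes. All 53 had a usable value in both deposited tables, out of 51609 symbols with a value in each. Paired-end RNA sequencing had been done on 2 libraries, PJ and PF, which the design text calls biological replicates. No treatment is recorded for either, the letters are not explained, and the labels do not say whether the cells came from separate cultures. Both were grown in DMEM with fetal bovine serum and antibiotics. Levels are FPKM, fragments scaled by transcript length and by the size of the library, so genes of different length can be compared. Each value came with a lower and an upper 95% bound.

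Ligands of this family are secreted as dimers, and TGF-beta is secreted in a latent form that LTBP proteins can bind. A ligand joins type II and type I receptor kinases, and the type I receptor phosphorylates SMAD proteins. SMAD2 and SMAD3 answer TGF-beta and activin, while SMAD1, SMAD5 and SMAD9 answer BMPs, and both sets act in the nucleus with SMAD4. SMAD6, SMAD7, the SMURF ubiquitin ligases, SKI and SKIL restrain the signal, and the ID genes are well-known BMP targets. In the colon, BMP signals accompany differentiation along the crypt, and TGF-beta restrains epithelial growth. HCT116 is a line with microsatellite instability, in which short repeats change length. Runs of a single base in the coding sequences of TGFBR2 and ACVR2A are common sites of frameshift mutation in colon tumours of that kind.

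Those runs are shown here because the receptors that carry them also differed between the libraries. The sequences are the reference ones from the longest coding transcript of GENCODE release 29 on GRCh38, not those of HCT116, and no allele was read from these data. Capitals mark the run, and 10 bases stand on either side.
TGFBR2: attatgaaggAAAAAAAAAAgcctggtgag
ACVR2A, upstream run: gattgtgtagAAAAAAAAgacagccctg
ACVR2A, downstream run: tgttgtgcatAAAAAAAAgaggcctgtt
The TGFBR2 run of 10 A lies at chr3:30650380-30650389 (plus strand, exon 4 of 8). The ACVR2A runs of 8 A lie at chr2:147899472-147899479 in exon 3 of 11 and at chr2:147926117-147926124 in exon 10, both on the plus strand. A run of 8 or more equal bases stood in the coding sequence of 4 of the 53 genes, or 7.55%, against 5.94% of 19492 protein-coding genes. The others were TGFB2, with 8 A, and SMAD7, with 8 C. A run of 10 or more was in 1 of the 53 genes, TGFBR2, and in 0.390% of all. Coding length, which bears on such counts, had a median of 1416 bases for the pathway genes and 1305 for all.

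Most of the intracellular pathway was transcribed in both libraries, whereas most ligands and antagonists were not. A gene was counted as expressed where PJ and PF each reached 1 FPKM. This was so for 35 of the 53 genes, or 66.0%, against a background of 27.9% of all symbols and 57.3% of protein-coding symbols. Expressed genes numbered 5 of 13 ligands, 3 of 4 latent binding proteins, 4 of 7 type I receptors, 4 of 4 type II receptors, 2 of 3 co-receptors and pseudoreceptors, 7 of 8 SMADs, 2 of 5 secreted antagonists, 4 of 4 intracellular inhibitors, 3 of 4 ID genes and the protease gene BMP1. Another 16 genes were under 1 FPKM in both libraries. The remaining pair, BMP5 and SMAD9, passed in a single library each. The median gene of the 53 stood at the 48.0 percentile of protein-coding symbols in PJ and the 48.5 percentile in PF.

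**Figure D1:**
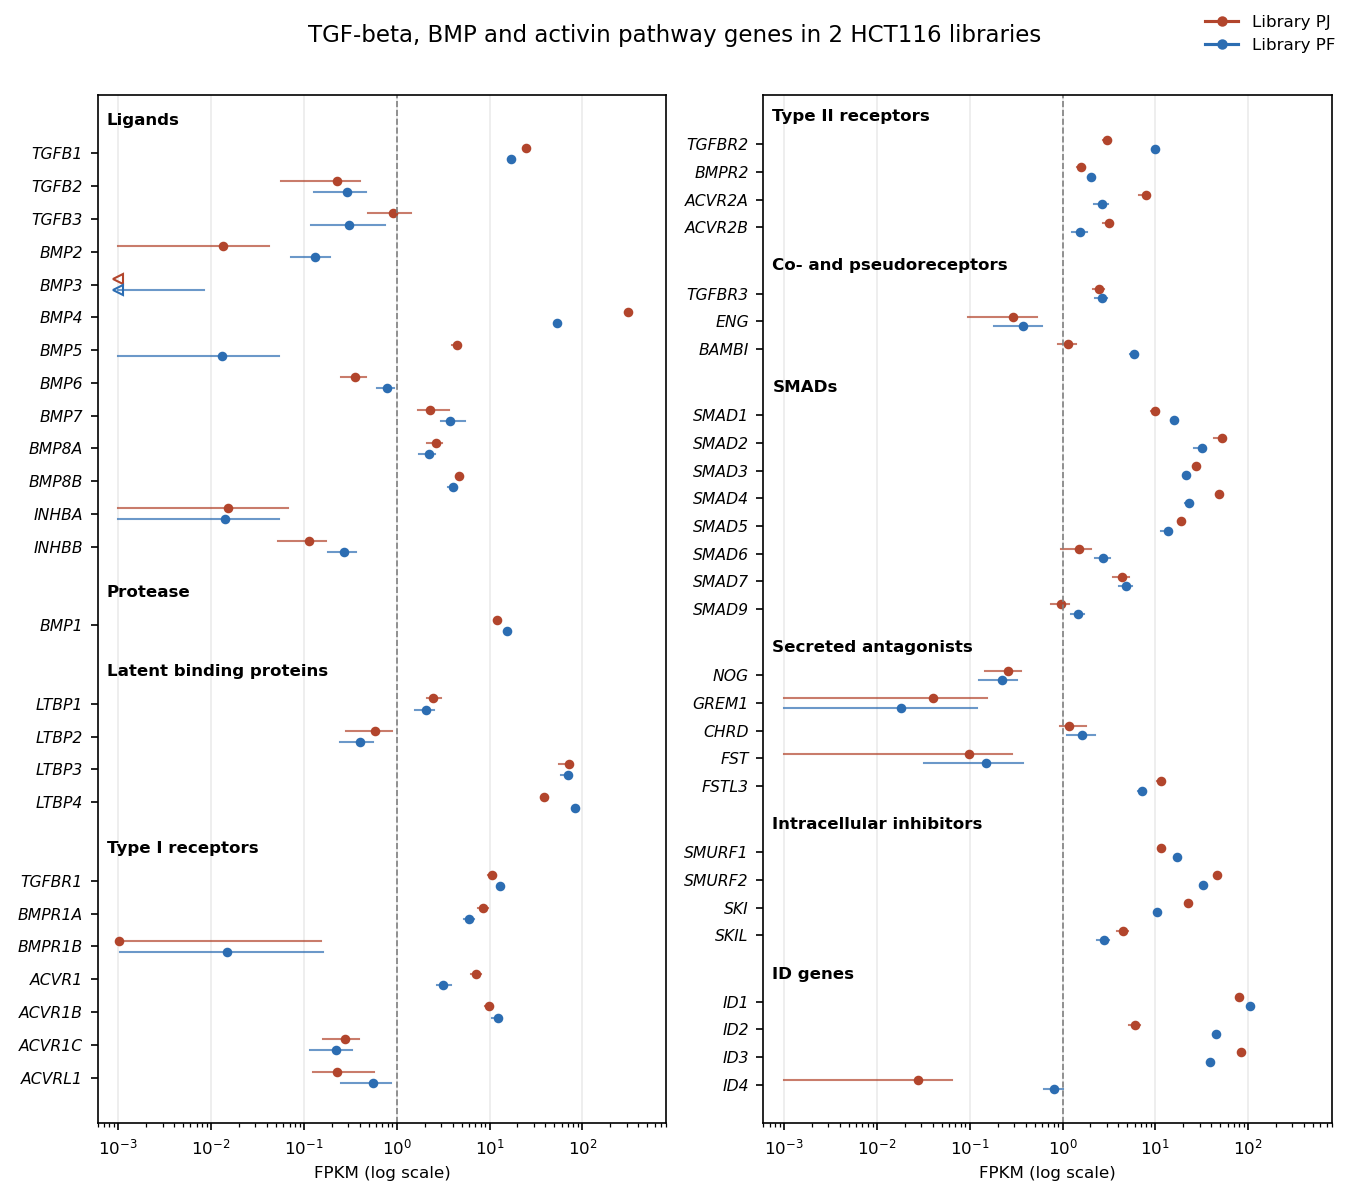
FPKM of each pathway gene on a log axis, grouped by tier, in library PJ (red, upper point of each pair) and library PF (blue, lower point); horizontal lines are the deposited 95% bounds, open triangles mark values below the axis, and the dashed line is 1 FPKM. BMP4 at 311 FPKM in PJ and 53.3 in PF lies far to the right of the other ligands, and the bounds of low genes such as INHBA, GREM1 and FST overlap widely.

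Each difference between the libraries rests on 1 library a side, so no p-value was computed and the deposited bounds cover only the estimate within a library. The ratio used is PJ over PF of FPKM plus 1, on the log2 scale; adding 1 shrinks the ratios of low genes. It was read for the 37 pathway genes whose mean reached 1 FPKM. Of these, 6 were at least 2-fold higher in PJ, or 16.2%, against 10.4% of 15736 symbols, and 4 were at least 2-fold lower, or 10.8%, against 5.22%. The other 27 differed by less. The median ratio was 0.19 for the pathway genes and 0.22 for all symbols, so these medians lay close together. They lay farther apart when the mean had to reach 5 FPKM, at 0.45 and 0.25. With only estimates inside their own bounds in both libraries they were 0.05 and 0.23. Most symbols were higher in PJ, with a median ratio of 1.19 (0.25 on the log2 scale). Dividing by it left BMP4, BMP5 and ACVR2A as 2-fold higher and LTBP4, TGFBR2, BAMBI and ID2 as 2-fold lower, against 6.29% and 7.14% of all symbols. SMAD4, SKI and ID3 then fell short of 2-fold.

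The bounds of the libraries did not overlap for 16 genes higher in PJ, or 43.2%, against 44.5% of all symbols. They also did not for 12 lower in PJ, or 32.4%, against 18.2%. Of 11476 protein-coding symbols, the kind to which all the pathway genes belong, 5867 were higher in this way and 2382 lower. After division by the median ratio the numbers were 14 higher and 14 lower, against 29.9% and 28.1%.

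**Figure D2:**
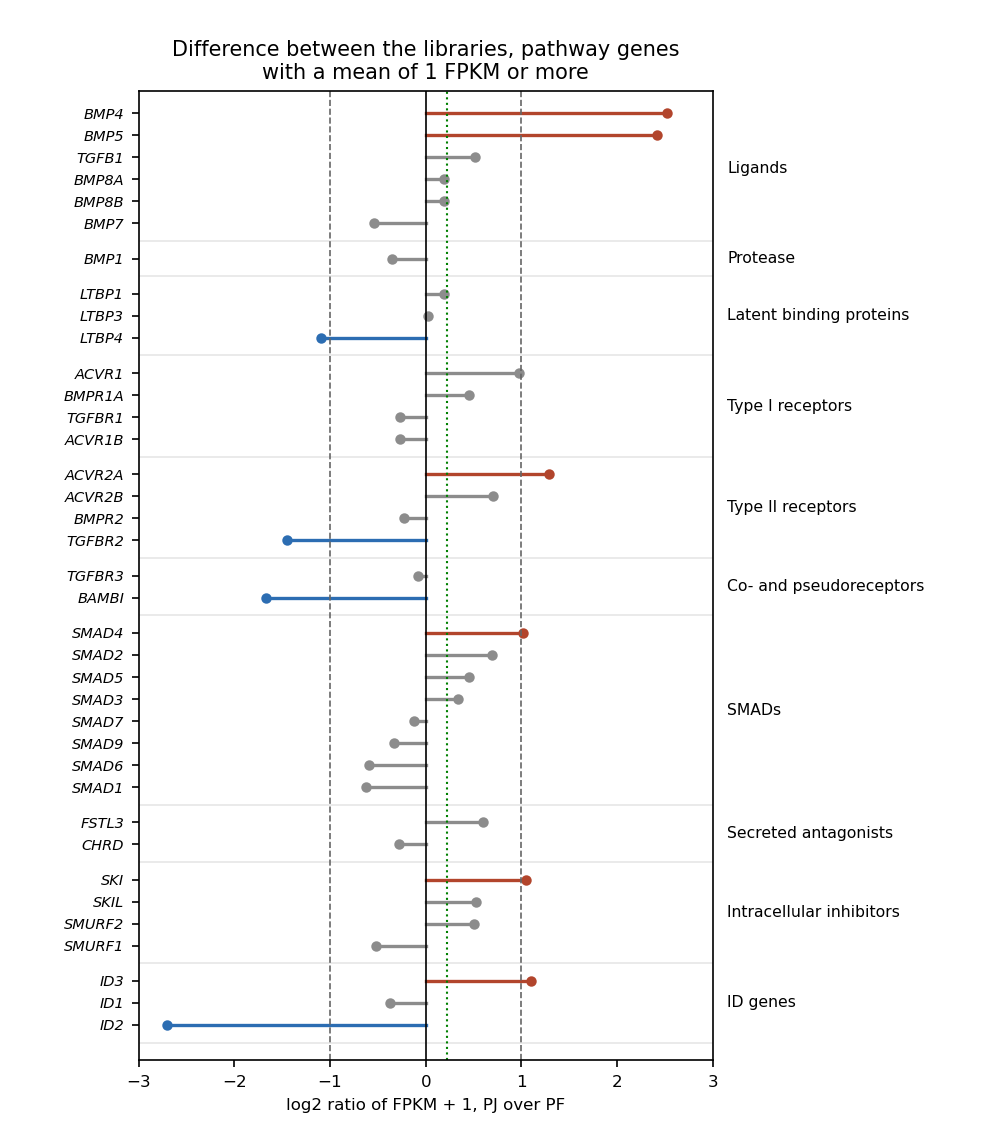
log2 ratio of FPKM + 1, PJ over PF, for the 37 pathway genes whose mean reached 1 FPKM, grouped by tier; red points are at least 2-fold higher in PJ and blue points at least 2-fold lower. Dashed lines mark 2-fold and the dotted green line the median of all symbols on the same scale (0.22). BMP4 and BMP5 lie farthest to the right and ID2 farthest to the left, while the SMADs lie between -0.62 and 1.02.

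The libraries also differed in epithelial markers. All 6 listed epithelial genes were above 1 FPKM in both libraries, with a summed level of 908 FPKM in PJ and 1551 in PF. Of the 6, 3 were at least 2-fold lower in PJ (KRT8, CLDN4 and CDH1), against 5.22% of all symbols. KRT8 was at 279.6 FPKM in PJ and 760.4 in PF, the latter below its own lower bound of 764. KRT18 and EPCAM were lower in PJ by less than 2-fold, and KRT19 was slightly higher, at 325 FPKM in PJ and 306 in PF. The E-cadherin gene CDH1 was at 1.80 FPKM in PJ and 21.9 in PF. Markers of fibroblasts summed to 3.97 FPKM in PJ and 7.55 in PF, with 1 of 6 above 1 FPKM in both, COL1A1. Those of endothelium summed to 0.148 and 0.245 FPKM in PJ and PF, with 0 of 4 above the threshold, and those of immune cells to 1.66 and 0.616, with 0 of 5 in both libraries. LUM and MS4A1 were listed at 0 in PJ. The part of these differences in the pathway values was not tested, and in bulk RNA fewer cells with a transcript and less of it in each cell cannot be told apart.

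Among the ligands, BMP4 was by far the most abundant transcript. BMP4, a bone morphogenetic protein of gut and mesoderm development (hg19, chromosome 14, 54416454 to 54425479), was at 311 FPKM in PJ and 53.3 in PF, the 98.7 and 90.8 percentiles of protein-coding symbols. Its PJ estimate exceeded its own upper bound of 298. The log2 ratio was 2.52, the highest of the 37 genes with 1 added to each value; with 0.1 or 0.01 added, BMP5 stood above it. TGFB1, the main TGF-beta isoform of most tissues, was next at 24.9 FPKM in PJ (bounds 23.4 to 26.4) and 17.1 in PF (15.9 to 18.3), a log2 ratio of 0.52. Summed BMP ligand FPKM was 12.5 times that of the TGF-beta isoforms in PJ and 3.62 times in PF. Without BMP4 it was 0.555 and 0.614 times, so the other BMPs together stayed below TGFB1 to TGFB3 in both libraries.

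BMP5 was low in PF. This BMP of bone and cartilage development (hg19, chromosome 6, 55618443 to 55740362) was at 4.42 FPKM in PJ (bounds 3.99 to 4.84) and 0.0132 in PF (0 to 0.0539), with a log2 ratio of 2.42. That ratio depends on the value added, being 5.32 with 0.1 and 7.57 with 0.01, where BMP4 was at 2.54 and 2.55. BMP7, known for kidney and bone development, was at 2.26 FPKM in PJ and 3.72 in PF, with overlapping bounds. The near-identical genes BMP8A and BMP8B were at 2.67 and 4.74 FPKM in PJ and 2.21 and 4.02 in PF; reads may be split between them, so their single values are uncertain. The activin subunit genes were low, INHBA at 0.0152 FPKM in PJ and 0.0141 in PF and INHBB at 0.114 and 0.272. TGFB3 was at 0.912 FPKM in PJ and 0.306 in PF, with overlapping bounds, and TGFB2 at 0.230 and 0.293. BMP2 was at 0.0135 and 0.132 FPKM in PJ and PF and BMP6 at 0.355 and 0.777. BMP3 was listed at 0 in PJ and at 0.000416 in PF. BMP1, which despite its name is a protease that cleaves procollagen and the BMP antagonist chordin, was at 11.9 FPKM in PJ and 15.4 in PF.

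LTBP3 and LTBP4 were among the most abundant transcripts of the pathway. Both encode proteins that tie latent TGF-beta to the extracellular matrix. LTBP3 was at 71.0 FPKM in PJ and 69.9 in PF, above its own upper bound in each (63.0 and 65.3). LTBP4 (hg19, chromosome 19, 41098789 to 41135725) was 2.15-fold lower in PJ, at 39.0 FPKM (35.7 to 42.9) against 84.1 in PF (79.3 to 89.5). The relatives LTBP1, at 2.48 FPKM in PJ and 2.05 in PF, and LTBP2, at 0.590 and 0.398, had overlapping bounds.

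As deposited, the receptors summed to nearly the same level in both libraries but in a different mix. The near equality depends on library scaling, since division by the median ratio of 1.19 lowers every PJ value. Type I receptor FPKM totalled 36.7 in PJ and 35.0 in PF, and type II receptor FPKM 15.6 and 16.1. Within the type II tier, TGFBR2, the receptor that binds TGF-beta, made up 19.3% in PJ and 61.5% in PF, whereas the activin receptor gene ACVR2A made up 50.4% in PJ and 16.3% in PF. TGFBR2 (hg19, chromosome 3, 30647994 to 30735634) was at 3.01 FPKM in PJ (bounds 2.74 to 3.29) and 9.92 in PF (9.30 to 10.3), a log2 ratio of -1.45. ACVR2A (hg19, chromosome 2, 148602086 to 148688393) was at 7.85 FPKM in PJ (6.68 to 8.53) and 2.63 in PF (2.17 to 3.08), a log2 ratio of 1.29. These are the genes with the long A runs printed above, and they differed in opposite directions. Their runs were printed because their levels differed. TGFB2 and SMAD7, which also carry runs, had overlapping bounds between the libraries. A link between runs and levels was not tested. Which alleles the cells carried was not measured.

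ACVR2B, the second activin type II receptor gene, was at 3.13 FPKM in PJ and 1.54 in PF, a 2.02-fold ratio of FPKM but 0.70 on the log2 scale with 1 added. BMPR2, the type II receptor gene for BMPs, was low in both, at 1.58 FPKM in PJ and 2.03 in PF. Of the type I receptors, TGFBR1 was at 10.5 FPKM in PJ and 12.9 in PF and the activin receptor gene ACVR1B at 9.94 and 12.2. The BMP type I receptor genes BMPR1A and ACVR1 were both higher in PJ, with bounds apart as deposited. BMPR1A was at 8.59 FPKM in PJ and 6.02 in PF, and ACVR1 at 7.13 and 3.16. After division by the median ratio their log2 ratios were 0.23 and 0.75, and the bounds of BMPR1A overlapped. BMPR1B was at 0.00102 FPKM in PJ and 0.0150 in PF, ACVR1C at 0.278 and 0.221 and ACVRL1, the endothelial type I receptor gene, at 0.226 and 0.559. TGFBR1 exceeded TGFBR2 by 3.49 times in PJ and 1.30 times in PF.

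BAMBI, a receptor without a kinase domain that blunts signalling (hg19, chromosome 10, 28966271 to 28971868), was at 1.15 FPKM in PJ (0.890 to 1.41) and 5.85 in PF (5.28 to 6.45). The log2 ratio was -1.67, and the ratio of FPKM was 5.10 in favour of PF. The co-receptor gene TGFBR3 (betaglycan) was at 2.45 FPKM in PJ and 2.65 in PF, and ENG (endoglin), a co-receptor of endothelium, at 0.293 and 0.371. The bounds of both co-receptor genes overlapped between the libraries.

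**Figure D3:**
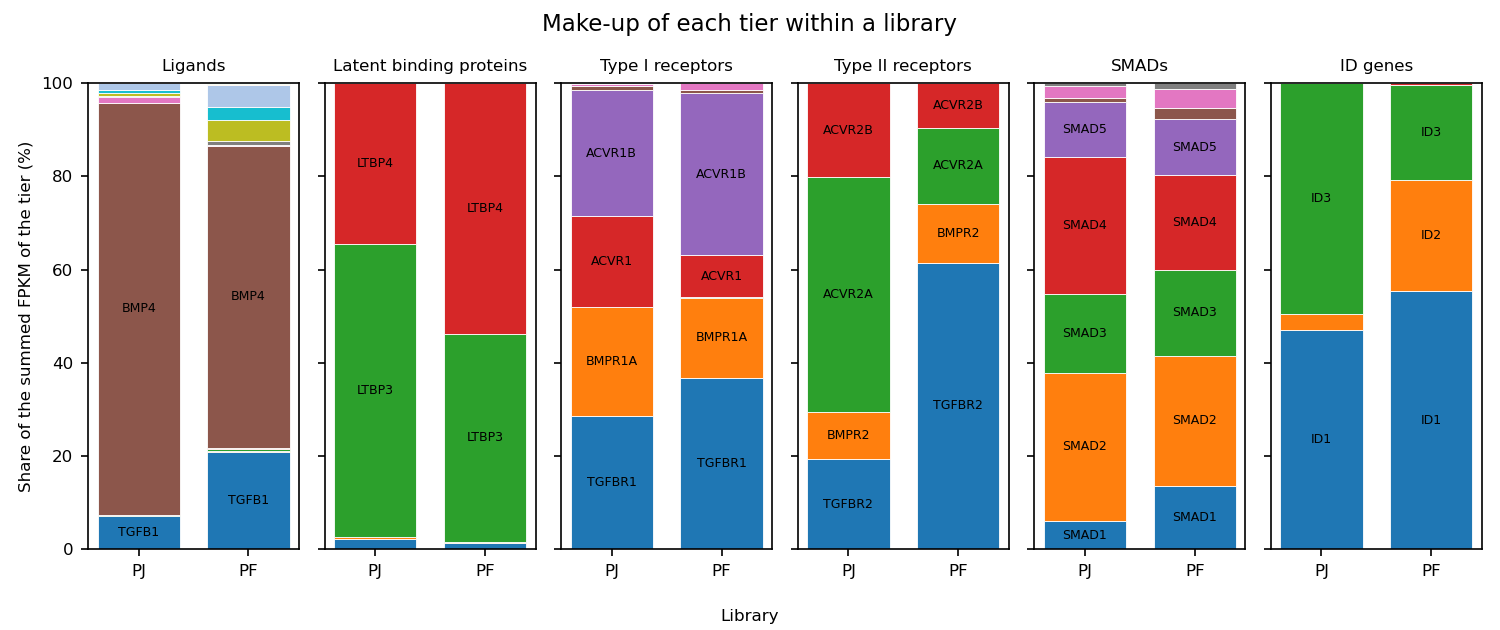
Share of each tier's summed FPKM (%) taken by each gene, in library PJ (left bar) and library PF (right bar); the smallest segments are not named. ACVR2A is the largest type II receptor segment in PJ (50.4%) and TGFBR2 in PF (61.5%), BMP4 is the largest ligand segment in both (88.4% and 64.9%), and the ID2 segment is 3.55% in PJ and 23.8% in PF.

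Of the 8 SMADs, 7 were expressed in both libraries, and SMAD9 missed the threshold in PJ. SMAD1 to SMAD5 were each above the inhibitory members SMAD6 and SMAD7 in both libraries, whereas SMAD9 was below them. The common partner SMAD4 (hg19, chromosome 18, 48494410 to 48611415) was at 48.3 FPKM in PJ (44.8 to 52.1) and 23.3 in PF (20.9 to 25.7). That is a log2 ratio of 1.02, just past 2-fold before the overall shift was divided out. SMAD2 was at 52.2 FPKM in PJ and 31.9 in PF, with estimates above their own upper bounds (47.8 and 29.9). RP11-380M21.2, a short gene inside its span, was listed at 138 FPKM in PJ and 262 in PF from few data. SMAD3 was at 27.4 and 21.5 FPKM in PJ and PF. Of the BMP effectors, SMAD5 was at 19.0 FPKM in PJ and 13.7 in PF, SMAD1 at 9.88 and 15.8 and SMAD9 at 0.964 and 1.46. SMAD1 and SMAD5 thus differed in opposite directions, each with bounds apart. As deposited, summed levels of the BMP effectors were nearly equal, at 29.9 FPKM in PJ and 30.9 in PF. That near equality also depends on library scaling. The TGF-beta and activin effectors summed to 79.7 FPKM in PJ and 53.4 in PF, which is 2.67 times the BMP effectors in PJ and 1.73 times in PF.

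The inhibitory SMADs, whose genes are themselves induced by the pathway in many cells, were low. SMAD7 was at 4.37 FPKM in PJ (3.54 to 5.19) and 4.81 in PF (4.02 to 5.62), with overlapping bounds. SMAD6 was at 1.49 FPKM in PJ and 2.75 in PF, with bounds apart. The 5 receptor-regulated SMADs summed to 18.7 times the inhibitory ones in PJ and 11.2 times in PF.

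Of the 5 secreted antagonists among the pathway genes, 3 were under 1 FPKM in both libraries. NOG (noggin) was at 0.257 FPKM in PJ and 0.223 in PF, GREM1 (gremlin) at 0.0404 and 0.0180, and the activin-binding follistatin gene FST at 0.0989 and 0.150. CHRD (chordin) was just above the threshold at 1.16 FPKM in PJ and 1.61 in PF, with overlapping bounds. The follistatin relative FSTL3 was the only one of these 5 above 5 FPKM, at 11.4 in PJ (bounds 10.4 to 12.4) and 7.17 in PF (6.43 to 7.96).

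The intracellular inhibitors were all expressed. SKI, a nuclear co-repressor of SMADs (hg19, chromosome 1, 2160134 to 2241558), was at 22.7 FPKM in PJ (21.8 to 23.6) and 10.5 in PF (9.83 to 11.1), a log2 ratio of 1.05. Its relative SKIL, known as a TGF-beta target as well as a repressor, was at 4.48 FPKM in PJ and 2.79 in PF. The ubiquitin ligase genes differed in opposite directions, SMURF2 at 46.4 FPKM in PJ and 32.4 in PF and SMURF1 at 11.6 and 17.1, each with bounds apart. CEP95, which overlaps SMURF2 in the tables, was at 31.5 FPKM in PJ and 69.0 in PF.

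The 4 ID genes, which encode inhibitors of basic helix-loop-helix transcription factors, did not move together. ID1 was at 80.0 FPKM in PJ (76.3 to 84.1) and 104 in PF (99.2 to 109). ID3 (hg19, chromosome 1, 23884409 to 23886285) was at 84.0 FPKM in PJ (80.5 to 88.2) and 38.5 in PF (35.9 to 41.1), a log2 ratio of 1.10. ID2 (hg19, chromosome 2, 8818975 to 8824583) was at 6.04 FPKM in PJ (5.16 to 6.91) and 44.7 in PF (41.9 to 47.7), a log2 ratio of -2.70 and the lowest of the 37 genes. The ratio of ID3 to ID2 was 13.9 in PJ and 0.861 in PF. Since ID3 and ID2 were measured within the same library, that ratio does not depend on library scaling. ID4 was at 0.0275 FPKM in PJ and 0.817 in PF, under the threshold in both, and its bounds of 0 to 0.0639 and 0.633 to 1.00 were apart. The library with more BMP4 thus had more ID3, less ID2 and slightly less ID1.

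The promoters of the expressed ID genes are shown because these genes, all known BMP targets, differed in direction. Each line gives the 250 bases before the RefSeq transcription start on GRCh38.p14, read along the gene. Capitals mark the SMAD box CAGAC, the CCAAT box and TATAA, searched on both strands, where overlapping matches run together.
ID1: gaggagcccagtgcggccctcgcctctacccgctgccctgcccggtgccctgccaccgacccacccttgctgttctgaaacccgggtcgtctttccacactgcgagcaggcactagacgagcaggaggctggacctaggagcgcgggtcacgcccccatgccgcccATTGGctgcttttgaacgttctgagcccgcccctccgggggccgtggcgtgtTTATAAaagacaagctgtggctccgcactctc
ID2: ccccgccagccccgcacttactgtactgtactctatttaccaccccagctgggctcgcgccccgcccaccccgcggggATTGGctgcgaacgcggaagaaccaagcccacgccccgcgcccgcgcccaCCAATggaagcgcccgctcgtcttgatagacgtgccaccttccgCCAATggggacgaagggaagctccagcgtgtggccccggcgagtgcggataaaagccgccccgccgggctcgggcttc
ID3: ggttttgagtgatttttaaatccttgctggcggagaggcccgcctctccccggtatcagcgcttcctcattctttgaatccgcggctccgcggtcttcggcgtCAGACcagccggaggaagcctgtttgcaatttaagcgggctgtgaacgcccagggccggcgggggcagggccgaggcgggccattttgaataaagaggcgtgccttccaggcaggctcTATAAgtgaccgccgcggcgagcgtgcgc
The windows are chr20:31605039-31605288 (plus strand), chr2:8681806-8682055 (plus strand) and chr1:23559502-23559751 (minus strand). The ID1 window held 1 CCAAT box and a TATAA element, the ID2 window 3 CCAAT boxes and no TATAA, and the ID3 window 1 SMAD box, 1 TATAA and no CCAAT box. Among 35116 RefSeq promoter windows of this length, 38.0% held CAGAC, 32.0% CCAAT and 18.9% TATAA. Promoters matched for 46 of the 53 pathway genes, with 79 windows in all, of which 29, or 36.7%, held CAGAC. A match is a description of these letters and not a binding site, and known BMP response elements of ID genes can lie farther upstream than these windows reach.

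Other genes of the pathway were read from 5 further lists, chosen by known function. Among other ligands of the family, 3 of 20 were expressed, or 15.0%, against 57.3% of protein-coding symbols. Of these 3, 1 was 2-fold higher in PJ, against 10.4% of all symbols, and 2 were lower, against 5.22%. After the overall shift was divided out the numbers were the same, against 6.29% and 7.14%. GDF15, a stress-induced ligand that signals through GFRAL, was at 2.33 FPKM in PJ and 57.5 in PF. AMH, anti-Müllerian hormone, was at 7.77 FPKM in PJ and 19.4 in PF, and GDF11 at 4.74 and 1.07. NODAL and its antagonists LEFTY1 and LEFTY2 were under 1 FPKM in both libraries.

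Other extracellular regulators were expressed in 9 of 33 cases, or 27.3%, against 57.3% of protein-coding symbols. The highest were NBL1, a secreted BMP antagonist of the DAN family, at 48.5 FPKM in PJ and 43.0 in PF, TWSG1, a modulator of chordin, at 17.6 and 22.3, and FURIN, the convertase that cleaves ligand precursors, at 12.0 and 15.0. Of the 11 whose mean reached 1 FPKM, 1 was 2-fold higher in PJ (TLL1, a protease gene) and 1 lower (RGMA, a BMP co-receptor gene), against 10.4% and 5.22% of all symbols. After the overall shift was divided out 1 was higher (TLL1) and 2 were lower (RGMA and the integrin gene ITGAV), against 6.29% and 7.14%. NBL1 thus stood well above NOG, GREM1 and CHRD in both libraries.

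Other intracellular components were expressed in 27 of 30 cases, or 90.0%, against 57.3% of protein-coding symbols. FKBP1A, which binds type I receptors, was at 157 FPKM in PJ and 146 in PF. STRAP, a TGF-beta receptor-associated protein gene, was at 137 and 118 FPKM in PJ and PF, and E2F4 at 84.7 and 54.6. Of 28 read for differences, 5 were 2-fold higher in PJ, against 10.4% of all symbols, and 0 were 2-fold lower, against 5.22%. After the overall shift was divided out 2 were higher and 2 lower, against 6.29% and 7.14%. The SMAD co-repressor genes TGIF1, at 86.0 FPKM in PJ and 40.2 in PF, and TGIF2, at 8.61 and 2.98, were both among the 5. ZFYVE16, an endosomal SMAD adaptor gene, was at 9.47 FPKM in PJ and 3.11 in PF, and the kinase partner gene TAB1 at 13.8 and 6.38. The fifth was ZEB1, a repressor of epithelial genes, at 2.64 FPKM in PJ and 0.701 in PF.

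TGF-beta-responsive genes were 2-fold apart in 9 of 15 cases, 7 higher in PJ and 2 lower, against 10.4% and 5.22% of all symbols. After the shift was divided out 6 remained higher and 2 lower, against 6.29% and 7.14% of all symbols. JUNB, an AP-1 factor gene, was at 41.7 FPKM in PJ and 13.8 in PF, and the matricellular protein genes CYR61 and CTGF were at 48.7 and 8.06 FPKM in PJ and 15.9 and 1.45 in PF. The cell cycle inhibitor gene CDKN2B was at 6.67 FPKM in PJ and 1.25 in PF, and SNAI2, a repressor of epithelial genes, at 3.89 and 0.0235. KLF10 was at 21.3 FPKM in PJ and 27.3 in PF. The genes lower in PJ were the collagen gene COL1A1, at 2.93 FPKM in PJ and 7.28 in PF, and the leukotriene receptor gene LTB4R, at 4.69 and 10.5. Most genes of this list respond to growth factors and stress as well, and CTGF, CDKN2B and SNAI2, like NODAL, LEFTY1, LEFTY2, TLL1, RGMA, ITGAV, ZEB1 and DLX2 in the other lists, were picked out after their values were seen.

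Among BMP-responsive genes other than the pathway members, 3 of 9 were expressed, or 33.3%, against 57.3% of protein-coding symbols. The homeobox gene MSX1 was at 67.1 FPKM in PJ (bounds 65.4 to 70.0) and 16.3 in PF (15.1 to 17.4), a log2 ratio of 1.98. Its relative MSX2 was at 12.0 FPKM in PJ and 11.2 in PF, and GATA2 at 6.10 and 12.0. GATA2 was 2-fold lower in PJ after the overall shift was divided out. DLX2, another homeobox gene, was at 1.93 FPKM in PJ and 0.691 in PF. Of the 4 genes whose mean reached 1 FPKM, 3 had a ratio above 0, as had 10359 of 15736 symbols, and 1, GATA2, was lower. MSX2 was among the 3 with a log2 ratio of 0.10, below the median of 0.22 for all symbols, and its bounds overlapped.

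**Figure D4:**
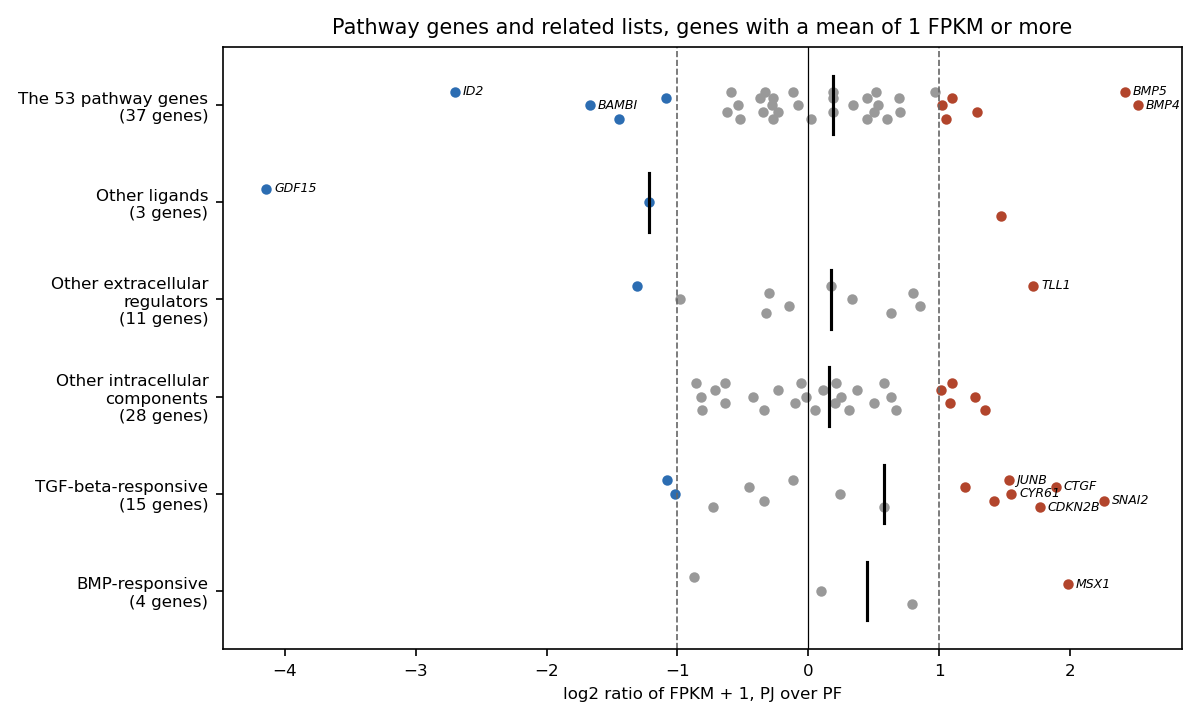
log2 ratio of FPKM + 1, PJ over PF, for genes whose mean reached 1 FPKM among the 53 pathway genes and the 5 related lists; each point is a gene (red at least 2-fold higher in PJ, blue at least 2-fold lower, vertical offset for legibility only), black bars are list medians and dashed lines mark 2-fold. The TGF-beta-responsive list has 7 red and 2 blue points of 15, and GDF15 lies farthest to the left.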

How the data were processed

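Per the submitters' processing notes, reads of the 2 HCT116 libraries were processed with TopHat2 2.0.8b and Cufflinks on hg19; for the Cufflinks version, the annotation release and the strand setting, no source used here gives a value. Per the file headers, each deposited table holds FPKM with 95% bounds for 56586 rows. Depth is unknown, since no table gives fragment counts. FPKM divides by the library total, so a few abundant RNAs shift every other value.

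Estimates with status FAIL were treated as missing; 0 pathway genes had it. Rows sharing a symbol were summed. For 10 pathway genes another gene at 1 FPKM or more in at least 1 library overlaps the listed span (HNRNPUL1 for TGFB1, IFT43 for TGFB3, TXNDC5 for BMP6), and reads there may be misassigned. Among the pathway genes, LTBP3, SMAD2 and BMP4 had estimates outside their own bounds. Gene type and coding sequence came from GENCODE 29, matched by identifier for 88.7% of rows, and promoters from RefSeq. A pseudocount of 1 was used. The 2-fold rule was tested on simulated data whose planted changes were well above 2-fold. Changes near 2-fold and a shift between whole libraries were not simulated.

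Members and lists were chosen with earlier results of these data known. All 53 members are named; of each further list, the 3 highest means and genes 2-fold apart at a mean of 5 FPKM or more. Alternatives were other thresholds, pseudocounts, scalings and filters. Python 3.11.15, numpy 2.4.6 and pandas 2.3.3 were used. The normal colon libraries of the design text were not used here. Values of some genes on the further lists are not reported here.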

Additional observations from a re-analysis of the deposited data

How the results depend on the processing

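The count of expressed pathway genes was 36 at 0.5 FPKM, 32 when the lower bound had to reach 1 FPKM, and 36 in either library alone; at 5 FPKM it was 20. The count of genes 2-fold higher in PJ was 6 of 37 as deposited, against 10.4% of all symbols. It was 3 after division by the median ratio and 3 with upper quartile scaling, against 6.29% and 6.11%, because SMAD4, SKI and ID3 fell under 2-fold. Pseudocounts of 0.1 and 0.01 gave 7 and 8, while the shares of all symbols rose to 14.5% and 14.9%. The 4 genes 2-fold lower in PJ stayed at that number under every scaling and pseudocount tried, against 5.22% to 7.33% of all symbols. They were 3 of 23 when the mean had to reach 5 FPKM, against 4.26%. The median log2 ratio of 0.19, against 0.22 for all symbols, became -0.01 after division by the median ratio, against 0.01. With upper quartile scaling it was -0.02, against -0.01. It was 0.45 when the mean had to reach 5 FPKM, against 0.25, and 0.00 with no filter on low values, against 0.00. With only estimates inside their own bounds in both libraries it was 0.05, against 0.23. The cause was not tested for the filters on the mean and on the bounds. BMP8B and LTBP3, both under 2-fold, changed sign under the scalings by the median ratio and the upper quartile, and LTBP3 also when scaled to the sum over genes spanning 200 bp or more, where SMAD4 fell under 2-fold. ACVR1 passed 2-fold with both smaller pseudocounts and ACVR2B with 0.01; BMP5 was at 5.32 and 7.57 with pseudocounts of 0.1 and 0.01, against 2.42. Leaving out a library leaves no difference to compute. Unknown depth limits what the lowest values show: for genes near 0 the bounds span a wide range on a log scale.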
